A study of Homo sapiens with 6 samples.

Results

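CDX1, CDX2 and CDX4 are the human caudal-type homeobox genes, and the peaks described here are those of brachyury (BRA), a T-box transcription factor, in the neighbourhood of these genes. Peaks were taken from all 4 deposited lists where their midpoint fell within fixed hg19 windows that hold the gene body and 50 kb on either side. The windows run from 149.496 to 149.614 Mb of chromosome 5 for CDX1, from 28.486 to 28.594 Mb of chromosome 13 for CDX2 and from 72.617 to 72.724 Mb of chromosome X for CDX4. They held 27 of the 54994 peaks of the series. Of these, 15 lay in the CDX1 window, 12 in the CDX2 window and 0 in the CDX4 window.

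BRA binding was measured by ChIP-seq, the sequencing of chromatin fragments pulled down with an antibody, in cells of the established human embryonic stem cell line H9. All cells were kept in a defined medium (CDM-PVA) for 36 h, to which FGF2 at 20 ng/ml and the PI3 kinase inhibitor LY294002 at 10 μM had been added. FLyA cells, labelled endoderm progenitors, also received 100 ng/ml activin A, and FLyB cells, labelled mesoderm progenitors, received 10 ng/ml BMP4 instead. Each medium has 1 library with an antibody from R&D Systems and 1 with an antibody from Santa Cruz, and the 2 input libraries were not analysed here. These libraries model early primitive streak cells of a single line in culture, and nothing in the lists tells how many of the cells carried BRA. By western blot and flow cytometry, the paper reports mostly low BRA in FLyA cells and mostly high BRA in FLyB cells. Whether this difference in level bears on the peak counts was not tested here. Whether the cells expressed the CDX genes was not measured in these files. The paper reports from other experiments that FLyB cells upregulated CDX2. It also names CDX2 among the genes that needed BRA for normal upregulation in BMP4-treated cells. The name posterior mesoderm thus rests on the labels, on these reports and on what is known of the genes.

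CDX proteins are homeodomain transcription factors related to Drosophila caudal. In vertebrate embryos they are made in the posterior primitive streak and the tail bud, downstream of WNT, FGF and retinoic acid signals, where they activate HOX genes and give posterior tissue its position along the body axis. CDX2 is also known for its roles in the trophectoderm and in the intestinal epithelium, CDX1 for its roles in vertebral patterning and the intestine, and CDX4 for its part in axial elongation and early blood formation. BRA is made in the same streak and tail bud cells, and the lists were read here for where it was called around these genes.

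With the R&D Systems antibody, the windows of CDX1 and CDX2 held more BRA peaks from BMP4-treated than from activin-treated cells. The few Santa Cruz peaks there were all from BMP4-treated cells. With the R&D Systems antibody, 17 FLyB and 7 FLyA peaks fell in the 3 windows, and with the Santa Cruz antibody 3 FLyB and 0 FLyA peaks did. The R&D Systems lists hold 23687 FLyB and 25864 FLyA peaks, so the windows took 7.18 of every 10000 FLyB peaks and 2.71 of every 10000 FLyA peaks. FLyB peaks thus made up 70.8% (17 of 24, exact Clopper-Pearson 95% interval 48.9 to 87.4%) of the R&D Systems peaks in the CDX windows, against 47.8% over both whole lists. The interval covers counting error only and treats peaks as independent, which neighbouring peaks are not. Every medium and antibody has 1 library, so within an antibody no test between media could be made. The study ran the antibodies as replicate experiments. It reported a weaker signal over noise and fewer unique reads with Santa Cruz, and based its later analyses on R&D Systems alone. Pairing the media by antibody gave differences, FLyB less FLyA, of 4.47 (R&D Systems) and 9.98 (Santa Cruz) in every 10000 listed peaks. The Santa Cruz value rests on 3 against 0 peaks, from lists of 3007 FLyB and 2436 FLyA peaks, too few to compare the media. The exact two-sided sign permutation test over these 2 pairs gave p = 0.5, the smallest p that 2 pairs allow, so no difference of any size could pass. The antibodies are given side by side below.

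CDX1 had 10 FLyB and 4 FLyA peaks with the R&D Systems antibody, and 1 FLyB and 0 FLyA peaks with the Santa Cruz antibody. The excess of FLyB over FLyA peaks at CDX1 was thus 6. CDX2 had 7 FLyB and 3 FLyA peaks with the R&D Systems antibody, and 2 FLyB and 0 FLyA peaks with the Santa Cruz antibody. Its excess was 4 with the R&D Systems antibody, in the same direction as at CDX1. The Santa Cruz counts are too small to judge a direction at either gene. CDX4 had 0 peaks in each of the 4 lists. The order of the genes by R&D Systems FLyB peaks was therefore CDX1, CDX2, CDX4, and the difference between CDX1 and CDX2 has no replicate against which it could be set.

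**Figure D1:**
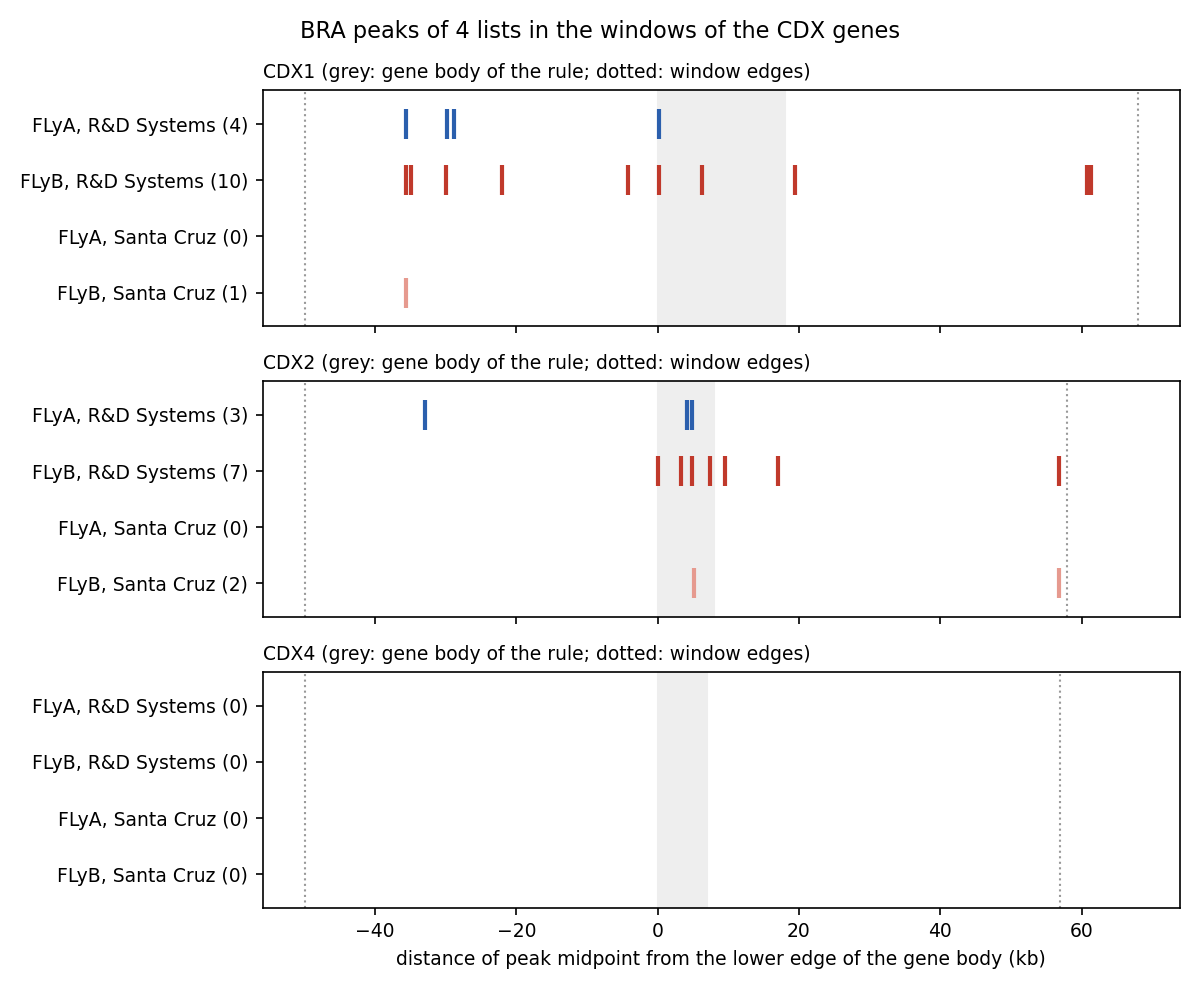
Midpoints of the BRA peaks in the window of each CDX gene, as distance in kb from the lower edge of the gene body toward higher chromosome positions, with 1 row for each deposited list and its number of peaks in brackets. Most marks are in the FLyB row of the R&D Systems antibody, with 10 at CDX1 and 7 at CDX2, the FLyA row of the Santa Cruz antibody is empty, and CDX4 has no mark in any row.

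Promoter sequences are shown for the genes that could be matched in the RefSeq promoter table, because CDX2 was the gene with the most peaks over its body and CDX4 had none. Of the 3 genes, CDX2 and CDX4 matched. Each sequence is the 250 bases before the annotated start, 5′ to 3′ on the strand of the gene, from RefSeq on GRCh38.p14. The CDX2 promoter lies on the minus strand at chr13:27969316-27969565 and that of CDX4 on the plus strand at chrX:73446803-73447052, and these positions cannot be set against those of the peaks, which are on hg19. Capitals mark the longest stretch that both promoters share.
CDX2: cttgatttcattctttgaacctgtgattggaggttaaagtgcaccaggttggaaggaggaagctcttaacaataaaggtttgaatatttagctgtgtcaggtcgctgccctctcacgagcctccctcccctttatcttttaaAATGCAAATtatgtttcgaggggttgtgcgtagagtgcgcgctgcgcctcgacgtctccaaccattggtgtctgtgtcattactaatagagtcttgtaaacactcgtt
CDX4: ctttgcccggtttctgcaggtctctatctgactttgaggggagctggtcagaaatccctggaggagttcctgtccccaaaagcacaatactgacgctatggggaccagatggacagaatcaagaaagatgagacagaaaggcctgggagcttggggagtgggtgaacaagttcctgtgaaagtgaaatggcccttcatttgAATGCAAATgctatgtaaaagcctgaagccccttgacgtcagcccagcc

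T-box proteins such as BRA bind sequences of the form AGGTGTGA. Neither this sequence nor its core GGTGTG, which it contains, was present on either strand of the CDX2 or CDX4 promoter. Over the 35116 promoters of the table, 0.786% held AGGTGTGA and 14.2% held GGTGTG within the same 250 bases. The letters are therefore missing from most promoters of this length, and their absence says nothing of whether BRA binds there. Over the whole entries of 300 bases, which run past the start, GGTGTG was again in neither gene and in 16.8% of the table. Peak sequences were not used here, as no hg19 genome was given.

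The stretch shared by both promoters, AATGCAAAT, begins 108 bases before the start of CDX2 and 49 bases before that of CDX4. It was found after the sequences had been seen. It holds the octamer ATGCAAAT, the sequence to which POU factors such as OCT4 bind, in the same orientation in both genes. The octamer was present on either strand in 1.63% of the promoters and the longer stretch in 0.481%. A further stretch of 9 letters, CCATTGGTG, which holds the reverse of the CCAAT box of many promoters, is shared by the whole entries. It begins 47 bases before the start of CDX2 and 2 bases before that of CDX4, and was present in 0.33% of the entries. The promoters differ in composition, with 45.2% G and C and 10 CG pairs in CDX2, and 50.8% and 3 CG pairs in CDX4, beside medians of 58.0% and 11 over the table.

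To set these numbers against the rest of the genome, all chromosomes were cut into tiles as wide as each window, and peaks were counted in every tile. Tiles of 118 kb, the width of the CDX1 window, held 0.918 R&D Systems FLyB peaks on average, and 61 of 25783 such tiles (0.237%) held the 10 or more that CDX1 had. At least 4 FLyA peaks, as at CDX1, were present in 5.48% of these tiles. CDX1 was therefore among the most crowded places of the FLyB list, and among the more crowded ones of the FLyA list. The tiles were not limited to surroundings of genes, and 55.4% of them held no R&D Systems FLyB peak. How the CDX windows rank among windows centred on genes was not tested. An excess of FLyB over FLyA peaks of 6 or more was found in 0.318% of the tiles. Only a tile with at least 6 FLyB peaks can reach it, so this share depends on crowding and is no separate measure of the media.

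Tiles of 108 kb, the width of the CDX2 window, held 0.84 R&D Systems FLyB peaks on average. The 7 or more of CDX2 were reached in 259 of 28170 tiles (0.919%), and its 3 or more FLyA peaks in 10.4%. CDX2 too thus stood higher among the tiles of the FLyB list than among those of the FLyA list. An excess of 4 or more FLyB peaks, as at CDX2, occurred in 1.18% of the tiles, a share that likewise depends on crowding. For the shorter Santa Cruz FLyB list, at least 1 peak, as at CDX1, was present in 9.75% of tiles, and at least 2, as at CDX2, in 1.25%. No Santa Cruz FLyA peak was present in 91.5% of the tiles of CDX1 width and in 92.2% of those of CDX2 width, so its absence from these windows is the usual state of a tile.

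An empty window as at CDX4 was common. Of the 28436 tiles of 107 kb, the width of its window, 58.0% held no R&D Systems FLyB peak and 51.0% no R&D Systems FLyA peak. The Santa Cruz lists had no FLyB peak in 91.0% and no FLyA peak in 92.2% of these tiles, and 38.1% held no peak of any list. On chromosome X, where peaks were sparser, 47.5% of the 1440 tiles held no peak of any list. The tiles include stretches to which reads cannot be placed, and these add to the empty ones. With read depth unknown, the absence of a call at CDX4 does not show that BRA was absent there.

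**Figure D2:**
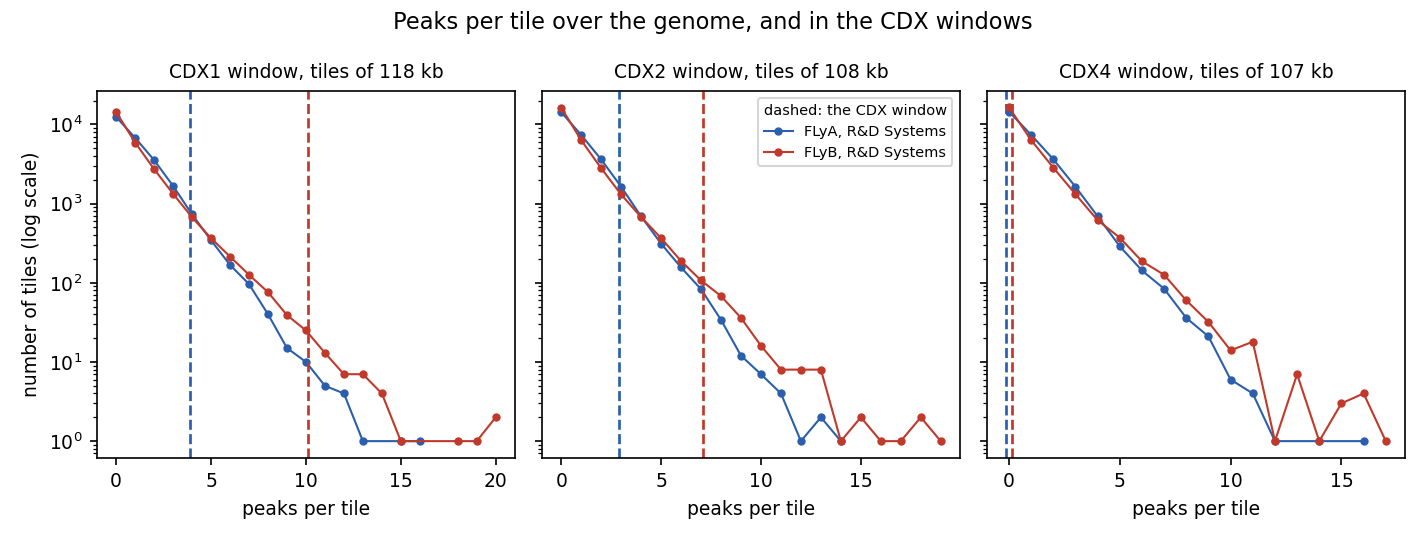
Number of tiles of the genome (log scale) against the number of R&D Systems peaks in a tile, in FLyA (blue) and FLyB (red), for tiles as wide as the window of each CDX gene; dashed lines give the count in the window itself, drawn slightly apart where equal. The FLyB line of CDX1 stands at 10 and that of CDX2 at 7, far into the tail, and both lines of CDX4 stand at 0, where most tiles lie.

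Overlapping peaks of different lists were merged into sites, with an overlap of at least 1 bp. The 27 peaks form 20 sites, of which 13 were called in FLyB only, 4 in both media and 3 in FLyA only. Not all of them are close to a CDX gene: 4 of the 11 at CDX1 and 7 of the 9 at CDX2 lay inside the gene body or within 10 kb. The gene to which a more distant site belongs cannot be told. FLyB-only sites were 65.0% of the sites in the CDX windows (95% interval 40.8 to 84.6%), against 36.2% of the 43081 sites of the genome. This interval and those below treat sites or peaks as independent, which neighbouring ones are not. FLyA-only sites were 15.0% (3.21 to 37.9%) against 43.7%. Sites called in both media were 20.0% (5.73 to 43.7%) against 20.1% of all sites, so the share common to both media was near that of the genome and the surplus of FLyB-only sites stood against fewer FLyA-only sites.

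**Figure D3:**
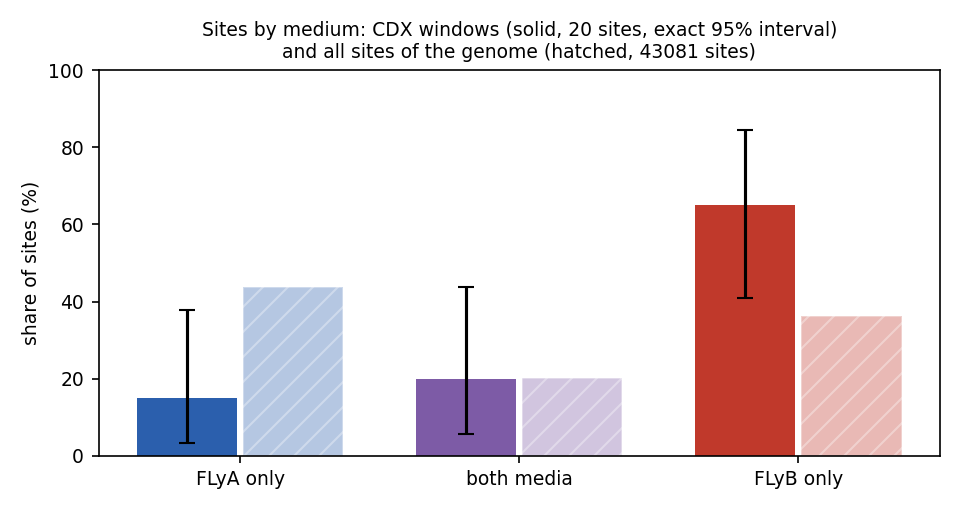
Share of sites called in FLyA only, in both media and in FLyB only, for the 20 sites of the CDX windows (solid bars) and for all 43081 sites of the genome (hatched bars). The exact 95% intervals on the solid bars cover counting error only and treat sites as independent, which neighbouring sites are not. FLyB-only sites were 65.0% in the CDX windows and 36.2% of all sites, whereas the bars for both media are at the same height.

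Of the 20 sites, 3 (15.0%, 3.21 to 37.9%) were called with both antibodies in FLyB, beside 5.52% of all sites. None was called with both antibodies in FLyA, which allows up to 16.8%, beside 1.81% of all sites. Peaks of 3 lists met at 2 sites (10.0%, 1.23 to 31.7%), 1 each at CDX1 and CDX2, beside 3.68% of all sites with 3 or more lists. Every site with support from both antibodies thus had it in FLyB.

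Counted by peak, 13 of the 17 peaks listed for FLyB with the R&D Systems antibody (76.5%, 50.1 to 93.2%) overlapped no FLyA peak, beside 63.9% of that whole list. Of the 7 FLyA peaks, 3 (42.9%, 9.9 to 81.6%) overlapped no FLyB peak, beside 67.0% of the whole list. Each interval holds the share of the whole list. Of the FLyB peaks, 3 of 17 (17.6%, 3.8 to 43.4%) were met by a Santa Cruz FLyB peak, beside 10.0% in the whole list. All 3 Santa Cruz FLyB peaks lay on R&D Systems FLyB peaks, as 79.0% of that list did. None of the 7 FLyA peaks was met by a Santa Cruz FLyA peak, where the whole-list share is 3.02%.

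CDX1 lies between 149.546 and 149.564 Mb, as the window implies with a precision of 1 kb, and is read toward higher coordinates. A site of both media lies at the start edge of this gene body, at chr5:149546038-149546450, with its midpoint 0.2 kb from the edge. That is finer than the precision of 1 kb, so whether the site lies inside the gene cannot be told. Its FLyA and FLyB midpoints were 13 bp apart. It is the site nearest the start of the gene, and neither Santa Cruz list holds a peak there. Farther inside the gene body, a site was called in FLyB only, at chr5:149552096-149552495, and lies 6.3 kb from the lower edge. A pair of FLyB-only sites flanks the gene, at chr5:149541612-149542011, 4.2 kb below it, and at chr5:149565248-149565647, 1.4 kb beyond its upper edge. Within 10 kb of the gene body, CDX1 thus had 4 sites, 3 of them FLyB-only and 1 of both media.

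The site of CDX1 with the widest support lay farther away, at chr5:149510192-149510630, 35.6 kb below the gene body. It was called in FLyA and FLyB with the R&D Systems antibody and in FLyB with the Santa Cruz antibody. The midpoints of the FLyB peaks of the antibodies were 9 bp apart, and those of the R&D Systems peaks of the media 30 bp, beside medians of 31 and 38 bp over all overlapping pairs of these lists. This site heads a group of 5 sites between 35.6 and 22.0 kb below the gene. The group also has a site of both media at chr5:149515899-149516363, FLyB-only sites at chr5:149510907-149511306 and chr5:149523760-149524159, and the only FLyA-only site of the window, at chr5:149516906-149517305.

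The group lies on the side of PDGFRB, the next protein-coding gene toward lower coordinates, which encodes a receptor for platelet-derived growth factor. On the upper side, 2 neighbouring FLyB-only sites lay 42.8 and 43.4 kb from the gene body, at chr5:149606605-149607004 and chr5:149607182-149607581. The next protein-coding genes on that side are SLC6A7, a proline transporter of neurons, and CAMK2A, a calcium-dependent protein kinase. Positions of these neighbours in hg19 were not used here. Whether a distant site lies inside a neighbouring gene was therefore not checked, and to which gene it belongs cannot be told.

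CDX2 lies between 28.536 and 28.544 Mb, again with a precision of 1 kb, and is read toward lower coordinates. Its sites were packed within the gene itself: 4 of the 9 sites lay inside the 8 kb gene body, and 7 lay inside it or within 10 kb. The central site, at chr13:28540696-28541326, was called in both media with the R&D Systems antibody and in FLyB with the Santa Cruz antibody. The R&D Systems midpoints of the media were 17 bp apart there, whereas the Santa Cruz midpoint lay 214 bp from that of the FLyB peak of R&D Systems, so that the merged site is 631 bp long. It was the widest of the offsets between the antibodies in FLyB, whose others were 9 and 75 bp.

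Around this site, FLyB-only sites were called at chr13:28539049-28539448 and chr13:28543217-28543616, and an FLyA-only site at chr13:28540011-28540410. The last of the FLyB-only sites has its midpoint 0.6 kb inside the upper edge of the gene body, the end from which CDX2 is read. With that edge known to 1 kb only, this midpoint may lie on either side of the start. Further FLyB-only sites lay at the opposite edge (chr13:28535791-28536190) and beyond the start of the gene (chr13:28545395-28545794 and chr13:28552774-28553173), 1.6 and 9.0 kb from the body. Within 1 kb of the start edge of CDX2, by midpoint, the R&D Systems lists thus held an FLyB peak and no FLyA peak, and the nearest FLyA peak there was that of the central site, about 3 kb into the gene. Within the same distance of the start of CDX1, they held a peak of each medium. No Santa Cruz peak lay within 1 kb of either start. These comparisons at 1 kb are no finer than the precision of the edges.

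Both remaining sites of the CDX2 window are far from the gene, and whether they lie inside a neighbouring gene was not checked. An FLyA-only site at chr13:28502793-28503192, 33.0 kb below the gene body, lies on the side of PDX1, a homeobox gene of pancreas development. An FLyB-only site at chr13:28592569-28593043 lies 48.8 kb above the body, on the side of URAD and FLT3, of which FLT3 encodes a receptor tyrosine kinase of blood progenitors. The latter is the only site of all 3 windows that was called with both antibodies in FLyB and with neither in FLyA, its midpoints being 75 bp apart. It is also the member nearest to the limit of the rule, 1.2 kb inside the window. The nearest peak outside a window was an FLyB peak 8.1 kb past the upper edge of that of CDX1, at chr5:149621946-149622345.

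The median gap between neighbouring sites was 5.12 kb in the CDX1 window and 2.37 kb in the CDX2 window, beside 29.5 kb over the genome. Gaps were taken only within each window, with 11 sites in 118 kb and 9 sites in 108 kb. Medians below 29.5 kb were therefore fixed by the number of sites, and are no separate result. Gaps of at most 1000 bp were 3 of 10 at CDX1 and 2 of 8 at CDX2, beside 7.8% of the 43056 gaps of the genome. Where a site was called in 1 medium only, a peak of the other medium was often near. Of the 13 FLyB-only sites, 8 had an R&D Systems FLyA peak within 10 kb. This is a larger share than the 31.7% of all FLyB-only sites with an R&D Systems peak. Of the 3 FLyA-only sites, 2 had an FLyB peak within 10 kb, at 607 and 302 bp, and 24.3% of all such sites did. The 5 FLyB-only sites with no FLyA peak within 10 kb were all on the upper side of their gene, at distances from 1.4 to 48.8 kb. Peaks of both media were more crowded in these windows than elsewhere, and the part of this crowding in the short distances was not tested.

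With the R&D Systems antibody, a larger share of the FLyB peaks lay close to the gene at CDX2 than at CDX1. At CDX2, 6 of the 7 lay within 10 kb of the gene body, and at CDX1 4 of the 10 did. From 50 to 100 kb on either side, CDX1 gained 3 FLyB peaks and 1 FLyA peak, and CDX2 gained 0 of either. With 500 kb on either side, the FLyB and FLyA counts of this antibody were 33 and 22 at CDX1, 18 and 9 at CDX2, and 5 and 4 at CDX4. FLyB peaks of R&D Systems outnumbered its FLyA peaks at CDX1 and CDX2 at every width tried, from 0 to 500 kb. Each width holds the peaks of the narrower ones, so these counts are not separate results. From 100 to 300 kb, CDX1 went from 13 FLyB and 5 FLyA peaks to 16 and 11, gaining more FLyA than FLyB peaks. CDX2 went from 7 and 3 to 11 and 5, gaining more FLyB peaks. The Santa Cruz lists were level at CDX1 at some widths, with 1 peak of each medium at 200 kb.

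The surroundings of CDX4 were empty over a wider span than its window. Its nearest R&D Systems FLyB peak lay 104.3 kb below the gene body, at chrX:72562457-72562856, and a Santa Cruz FLyB peak overlapped it, at chrX:72562490-72562889. The nearest FLyA peak of R&D Systems lay 132.7 kb above the body, at chrX:72806534-72806933. The first protein-coding neighbours of CDX4 are NAP1L2, which encodes a nucleosome assembly protein, and CHIC1. No peak of any list was called within 100 kb of the CDX4 gene body.

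**Figure D4:**
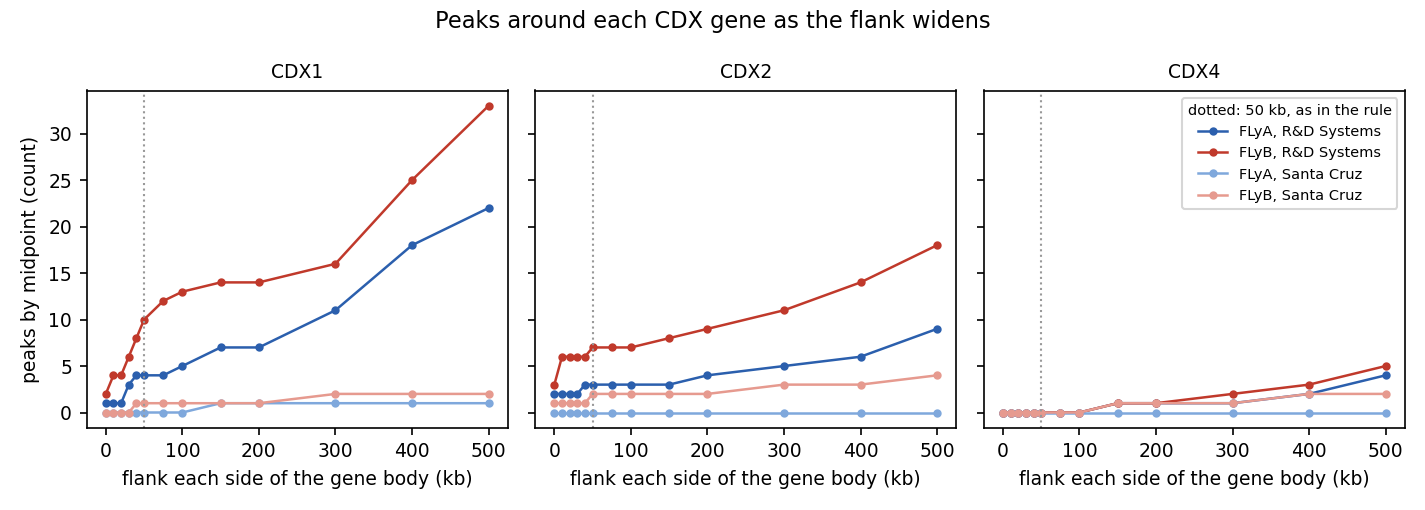
Number of peaks of each deposited list, by midpoint, inside the gene body and a flank of 0 to 500 kb on each side, for CDX1, CDX2 and CDX4; the dotted line marks the 50 kb of the rule. At CDX2 the FLyB count of R&D Systems is 6 at 10 kb, 7 from 50 to 100 kb and 18 at 500 kb, at CDX1 it is 10 at 50 kb and 33 at 500 kb, and at CDX4 every list stays at 0 up to 100 kb.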

How the data were processed

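BRA ChIP-seq libraries were sequenced by the authors on a Genome Analyzer II. The submitters' processing notes name Bowtie 0.12.7 and hg19, and peaks were called with MACS, 1 list per library. Each of the 4 deposited lists gives a chromosome, a start and an end per peak, with no score, signal or p-value, and every peak is 400 bp wide. Per the file headers, MACS was run at 1e-12 for the Santa Cruz antibody, and the R&D Systems files have no such header. Depth and the control used for each list are not given in the sources used here, so the precision of a single peak is unknown.

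Peaks were placed by midpoint and compared by position (Python 3.11.15, NumPy 2.4.6, pandas 2.3.3, SciPy 1.17.1), overlaps were checked with bedtools 2.31.1, functions were tested on simulated data, and figures were drawn with matplotlib 3.10.9. Positions are counted from 1. Tiles run from the start of each chromosome to its last peak. The media were paired by antibody in an exact sign permutation test, added after the data were seen. Intervals are exact (Clopper-Pearson, 95%), cover counting error only and treat peaks or sites as independent. The genes, windows and lists were chosen with earlier results of these data known. Named genes are the 3 members and their protein-coding neighbours, taken by order from RefSeq (GRCh38.p14). A list of 18 posterior mesoderm genes was set out and not placed, as no hg19 annotation was given. Alternatives covered the flank, the placing of peaks, the overlap rule, the antibody and the tile phase. Later, the whole promoter entry was added.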

Additional observations from a re-analysis of the deposited data

How the results depend on the processing

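Of 21 alternatives, 16 left the value within 1.5 times the main count or inside its 95% interval. R&D Systems FLyB peaks outnumbered its FLyA peaks under every one that counts both. Those alternatives reuse peaks of the main count, so this direction was largely fixed and is no separate result. Not all of the 16 were free to move. A Santa Cruz FLyA count of 0 could not fall with a narrower flank, and the interval of the FLyA share ran from 9.9 to 81.6%. With 20 kb each side, the windows held 10 R&D Systems FLyB, 3 R&D Systems FLyA and 1 Santa Cruz FLyB peaks. Kept to peaks that overlap a Santa Cruz peak of the same medium, a stricter set, 3 FLyB and 0 FLyA peaks of R&D Systems remained. Over the whole R&D Systems lists, 10.0% of FLyB and 3.02% of FLyA peaks have such an overlap, so this set leans to FLyB from the start. Both alternatives give fewer peaks by construction, since less sequence or fewer peaks are admitted. With 100 kb each side, the R&D Systems counts were 20 in FLyB and 8 in FLyA. The shares of peaks without a peak of the other medium ranged over the alternatives from 70.6 to 76.5% in FLyB and from 28.6 to 42.9% in FLyA. GGTGTG was in 0 of the matched CDX promoters also when all 300 bases of the entries were searched. T-box sequences within peaks and the central 200 bp of peaks were not searched for want of an hg19 genome. No paired analysis was possible because each medium and antibody has 1 library, other than pairing the media by antibody: the exact two-sided permutation test of those 2 pairs gave p = 0.5, the smallest it can give. The lists hold no heights, so a site called in 1 medium may carry BRA in the other below the threshold.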
